A study of Mus musculus with 8 samples.

Results

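The small heat shock proteins are a family of ATP-independent chaperones that hold unfolding proteins in a refoldable state. They share an alpha-crystallin domain and assemble into oligomers. Of their genes 7 are covered here, Hspb1, Hspb2, Hspb3, Hspb6, Hspb7, Hspb8 and Cryab, together with Bag3, whose protein binds HSPB8 and links it to HSP70. The members were chosen by name, with earlier results of these data known. A gene entered with the probe set that carries its symbol alone in the array annotation, and where there were several, with the brightest over all arrays. All 8 were found among the 19938 genes measured, and only Hspb1 has more than 1 probe set.

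Expression was compared between the soleus, a postural calf muscle rich in slow fibres, of 4 male Ts65Dn mice and 4 male wild-type (WT) mice. Ts65Dn mice model Down syndrome through an extra marker chromosome that brings parts of mouse chromosomes 16 and 17 to 3 copies. The chromosome 17 part holds genes without a counterpart on human chromosome 21, which limits the model. The WT mice are labelled B6EiC3SnF1/J, a mix of the B6 and C3H backgrounds. All mice were 5 months old and untreated, and the muscle was taken at rest under pentobarbital anaesthesia, with 1 array per mouse. None of the 8 genes lies on chromosome 16 or 17: Hspb7 is on chromosome 4, Hspb1 and Hspb8 on 5, Hspb6 and Bag3 on 7, Cryab and Hspb2 on 9 and Hspb3 on 13.

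In muscle these chaperones sit at the Z-disc and along desmin and actin filaments, where contraction keeps unfolding structural proteins. HSPB8 and BAG3 act with HSP70 in chaperone-assisted selective autophagy, which removes damaged filamin from the Z-disc. Mutations of human HSPB8, CRYAB and BAG3 cause muscle disease with protein aggregates. Several of the genes are targets of heat shock factor 1, whereas HSPB2 and HSPB3 form a complex of their own in muscle cells and are not known as heat inducible.

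Values are log2 RMA values, a scale on which a step of 1 is a doubling of array signal. Differences are Ts65Dn minus WT. A gene is said to pass when its adjusted p is under 0.05 in limma with Benjamini-Hochberg adjustment over all 19938 genes. The members' probe sets were brighter than those of 91.7% (Hspb3) to 99.4% (Cryab) of genes, although brightness is not calibrated between probe sets. Desmin (Des) was at 10.87 ± 0.05 in Ts65Dn and 10.55 ± 0.08 in WT (SD, n = 4 each). The slow myosin heavy chain Myh7 was at 10.52 ± 0.10 in Ts65Dn and 10.26 ± 0.35 in WT (SD, n = 4 each), so both markers of the labelled tissue were bright.

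The arrays of the groups differ in their overall shape, and this touches every value below. The interquartile range over all genes was 2.70 to 2.81 in Ts65Dn arrays and 2.09 to 2.48 in WT arrays, with the narrowest ranges in WT arrays 2 and 3 (2.23 and 2.09). In the bright part of the scale most differences were positive: the median was 0.17 over the 1535 genes whose mean lies between those of the dimmest and the brightest member, and -0.10 over all genes. A further pair of values is therefore given where they matter. The first is a level-matched difference, in which the median deviation of the 100 genes nearest in mean level is subtracted in each array. The second leaves out WT arrays 2 and 3.

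No member passed the test. Hspb8, Hspb1, Hspb7, Bag3 and Hspb6 had positive differences of 0.83, 0.58, 0.42, 0.47 and 0.38, with an unadjusted limma p under 0.05 for each, and Cryab (0.10), Hspb3 (-0.00) and Hspb2 (-0.09) did not. The count of members passing in either direction was 0 of 8, beside 5.26% of all genes, with 2.32% of all genes passing as higher and 2.94% as lower. The smallest adjusted p of any gene was 0.0449, so every gene that passed lay just under the threshold of 0.05. The 5 of 8 with a positive difference at an unadjusted p under 0.05 stand beside 12.3% of all genes and 21.5% of those in the members' range of level. The median difference of the 8 was 0.40. With level matching 4 of 8 had an unadjusted p under 0.05 and a positive difference, beside 11.5% of all genes. Without WT arrays 2 and 3 it was 2 of 8, Hspb1 and Hspb8, beside 6.99% of all genes. Since the members were chosen with earlier results of these data known, these counts are a description and not a test of the family.

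**Figure D1:**
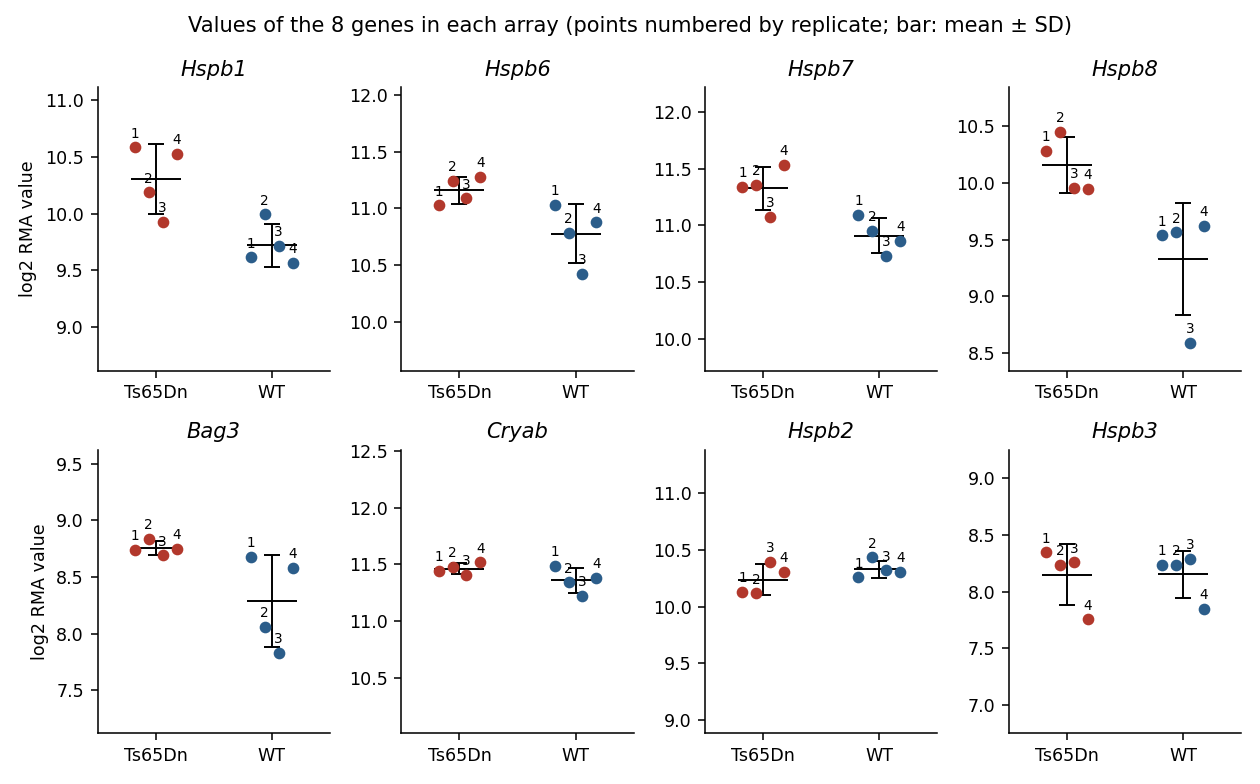
log2 RMA value (y axis, 2.5 units in every panel) of each gene in the 4 Ts65Dn (red) and 4 WT (blue) arrays, numbered by replicate, with mean and SD. Hspb8 and Bag3 have no overlap between the groups, and WT array 3 is the lowest of all arrays for Hspb6, Hspb7, Hspb8, Bag3 and Cryab.

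Heat shock factors bind inverted repeats of the triplet GAA, and the start regions of the members were searched for 2 such pairs, GAANNTTC and TTCNNGAA. Each reads the same on both strands, and in longer runs they overlap. RefSeq windows (GRCm38.p6) of 250 bases before to 50 after an annotated start matched 6 of the 8 genes, with 7 windows. Hspb2 and Cryab had none. GAANNTTC was found in windows of 5 of the 6 genes, Hspb8, Hspb1, Hspb6, Bag3 and Hspb3, beside 9.04% of all 27025 genes with a window (7.86% of all 32851 windows). TTCNNGAA was found in 0, beside 9.60% of genes, and Hspb7 had neither. The stretches with a match are shown because 4 of the 5 genes with the largest differences hold the same 8 letters, GAAGTTTC, which occur on either strand in windows of 1.35% of all genes. These letters were singled out after they were seen, so the 1.35% is not a chance rate for them. Hspb2 and Cryab, with differences of -0.09 and 0.10, had no window. Hspb3 alone therefore stands for members with a small difference, and a link between matches and differences was not tested. Capitals mark each match.
Hspb8 (chr5:116422845-116422914, minus strand, match 3 to 10 bases into the transcript): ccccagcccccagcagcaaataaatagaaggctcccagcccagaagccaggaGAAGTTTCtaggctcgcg
Hspb1 (chr5:135887766-135887865, plus strand, matches 117 to 110 and 97 to 90 bases before the start): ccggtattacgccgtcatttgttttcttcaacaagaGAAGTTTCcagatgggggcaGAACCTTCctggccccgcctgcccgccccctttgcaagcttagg
Hspb6 (chr7:30553145-30553224, plus strand, 120 to 113 bases before the second of its annotated starts): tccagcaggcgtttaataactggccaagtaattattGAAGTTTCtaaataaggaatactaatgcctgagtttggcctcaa
Bag3 (chr7:128523603-128523632, plus strand, 43 to 50 bases into the transcript): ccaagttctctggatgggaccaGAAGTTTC
Hspb3 (chr13:113663857-113663926, minus strand, 224 to 217 bases before the start): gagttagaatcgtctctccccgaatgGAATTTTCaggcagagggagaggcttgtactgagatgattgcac
A match is a string of letters and was not tested as a binding site. Hspb3, whose group means were equal to 2 decimals, holds a match with other middle letters, and Hspb7, with a difference of 0.42, holds none in its window.

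Hspb8 encodes the chaperone subunit of the BAG3 complex. It was at 10.28, 10.45, 9.96 and 9.95 in Ts65Dn arrays 1 to 4, against 9.54, 9.56, 8.59 and 9.63 in WT arrays 1 to 4. All Ts65Dn arrays lay above all WT arrays, and WT array 3 lay far below the other WT arrays. The means were 10.16 ± 0.25 in Ts65Dn and 9.33 ± 0.49 in WT (SD, n = 4 each), a 1.78-fold difference with a 95% interval of 1.25 to 2.53 and an adjusted p of 0.0554. Of the 100 genes nearest in level 0 had a larger difference. The level-matched difference was 0.69, with all 4 Ts65Dn arrays still above the WT range. All genes passing numbered 1049 with all arrays, 2865 without WT array 1 and 2422 without WT array 4. Hspb8 passed without WT array 1 (0.90, adjusted p = 0.0466) and without WT array 4 (0.93, adjusted p = 0.0453). Without WT arrays 2 and 3 the difference was 0.58 (unadjusted p = 0.00895, adjusted p = 0.209).

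Bag3 encodes the co-chaperone that couples HSPB8 to HSP70 and to autophagy. It was at 8.74, 8.84, 8.69 and 8.75 in Ts65Dn arrays, against 8.68, 8.06, 7.83 and 8.58 in WT arrays. The groups did not overlap, but WT arrays 1 and 4 came close to the lowest Ts65Dn array while WT arrays 2 and 3 were well below. The Ts65Dn arrays were close together, at 8.75 ± 0.06 against 8.29 ± 0.41 in WT (SD, n = 4 each), with a log2 fold change of 0.47 (95% interval 0.06 to 0.87, adjusted p = 0.107). It was 0.25 with level matching, where 2 of 4 Ts65Dn arrays exceeded the WT range, and 0.13 without WT arrays 2 and 3. Of the 100 genes nearest in level 24 had a larger difference. The 2 of 8 members, Hspb8 and Bag3, whose Ts65Dn arrays all lay above all WT arrays stand beside 6.81% of all genes and 15.6% of genes in the members' range of level.

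Hspb1, called Hsp25 in the mouse, is a chaperone of actin filaments that is phosphorylated under stress. Its values were 10.59, 10.19, 9.93 and 10.53 in Ts65Dn arrays, against 9.62, 9.99, 9.72 and 9.57 in WT arrays. In all, 3 of the 4 Ts65Dn arrays lay above the WT range, and Ts65Dn array 3 fell just below WT array 2. The means were 10.31 ± 0.31 in Ts65Dn and 9.72 ± 0.19 in WT (SD, n = 4 each), with a log2 fold change of 0.58 (95% interval 0.21 to 0.96, adjusted p = 0.0585). Only 2 of the 100 genes nearest in level had a larger difference. Unlike Bag3, Hspb1 had a larger difference without WT arrays 2 and 3 (0.71, 95% interval 0.27 to 1.16, unadjusted p = 0.00593), since WT array 2 was its highest WT array. Centring arrays on their medians moves the median of all genes to 0.08, and 990 of all genes passed there. Hspb1 was among them (0.77, adjusted p = 0.0397). Its second probe set differed from the first by at most 0.12 in any array and gave a difference of 0.51. Both are annotated to the same transcripts, so they do not give independent support.

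Hspb7, the cardiovascular small heat shock protein, is found mainly in heart and skeletal muscle and binds filamin C. It was at 11.34, 11.36, 11.08 and 11.54 in Ts65Dn arrays, against 11.09, 10.95, 10.73 and 10.87 in WT arrays. Of the 4 Ts65Dn arrays 3 were above the WT range, and Ts65Dn array 3 was level with WT array 1. The means were 11.33 ± 0.19 in Ts65Dn and 10.91 ± 0.15 in WT (SD, n = 4 each), with a log2 fold change of 0.42 (95% interval 0.12 to 0.71, adjusted p = 0.0709). It was 0.37 when level matched and 0.35 without WT arrays 2 and 3, and over all settings it ran from 0.32 with cyclic loess to 0.60 with arrays centred on their medians. Genes this bright differ little, and 3 of the 100 nearest in level had a larger difference than Hspb7. With that centring it passed (adjusted p = 0.0474), as did 990 of all genes.

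Hspb6, or Hsp20, is best known as a target of cyclic-nucleotide-dependent kinases in smooth muscle and heart. It was at 11.03, 11.24, 11.09 and 11.28 in Ts65Dn arrays, against 11.03, 10.78, 10.42 and 10.88 in WT arrays. Ts65Dn array 1 and WT array 1 were level, and the other Ts65Dn arrays were above every WT array. The means were 11.16 ± 0.12 in Ts65Dn and 10.78 ± 0.26 in WT (SD, n = 4 each), with a log2 fold change of 0.38 (95% interval 0.06 to 0.70, adjusted p = 0.100). The difference was 0.30 when level matched and 0.20 without WT arrays 2 and 3, where the interval ran from -0.09 to 0.50.

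Cryab encodes alpha-B-crystallin, the chaperone of desmin. It was at 11.44, 11.48, 11.41 and 11.52 in Ts65Dn arrays, against 11.49, 11.34, 11.22 and 11.38 in WT arrays. The groups overlapped, and 1 of 4 Ts65Dn arrays exceeded the WT range. The means were 11.46 ± 0.05 in Ts65Dn and 11.36 ± 0.11 in WT (SD, n = 4 each). The log2 fold change was 0.10 with a 95% interval of -0.14 to 0.34 (adjusted p = 0.506), whose upper end is a 1.27-fold higher level in Ts65Dn.

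Hspb2 lies next to Cryab on chromosome 9, and its protein binds the kinase DMPK. It was at 10.13, 10.12, 10.39 and 10.31 in Ts65Dn arrays, against 10.26, 10.44, 10.32 and 10.30 in WT arrays. Of the Ts65Dn arrays 2 were below the WT range and none was above it. The log2 fold change was -0.09 (95% interval -0.35 to 0.16, adjusted p = 0.571), and 0.09 when arrays were centred on their medians. Of the 100 genes nearest in level 83 had a larger difference.

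Hspb3 encodes the partner of HSPB2. It was at 8.35, 8.24, 8.26 and 7.76 in Ts65Dn arrays, against 8.23, 8.24, 8.29 and 7.85 in WT arrays. In each group array 4 was the lowest and the other 3 arrays lay close together. The means were 8.15 ± 0.27 in Ts65Dn and 8.15 ± 0.21 in WT (SD, n = 4 each), with a 95% interval of -0.36 to 0.35 (adjusted p = 0.997). The difference took either sign over the settings, from -0.28 with the arrays quantile normalized once more to 0.18 when arrays were centred on their medians.

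**Figure D2:**
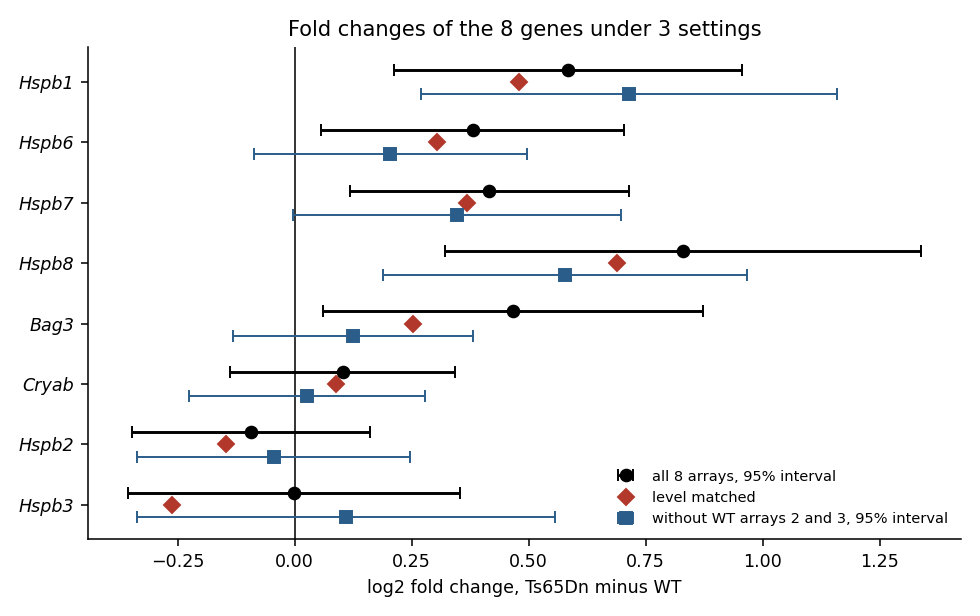
log2 fold change, Ts65Dn minus WT (x axis), of each gene with all 8 arrays (black, 95% interval), level matched (red) and without WT arrays 2 and 3 (blue, 95% interval). Hspb1 and Hspb8 keep intervals above 0 without those arrays, whereas Bag3 drops from 0.47 to 0.13.

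The members did not share 1 pattern over the arrays. WT array 3 was the lowest WT array for 5 of 8 genes, Hspb6, Hspb7, Hspb8, Cryab and Bag3, but not for Hspb1, Hspb2 or Hspb3. The highest of all 8 arrays was Ts65Dn array 4 for Hspb6, Hspb7 and Cryab, Ts65Dn array 2 for Hspb8 and Bag3, Ts65Dn array 1 for Hspb1 and Hspb3, and WT array 2 for Hspb2. The differences of Hspb1 and Hspb2 were 0.68 apart, a pair chosen after its values were seen and therefore not tested.

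**Figure D3:**
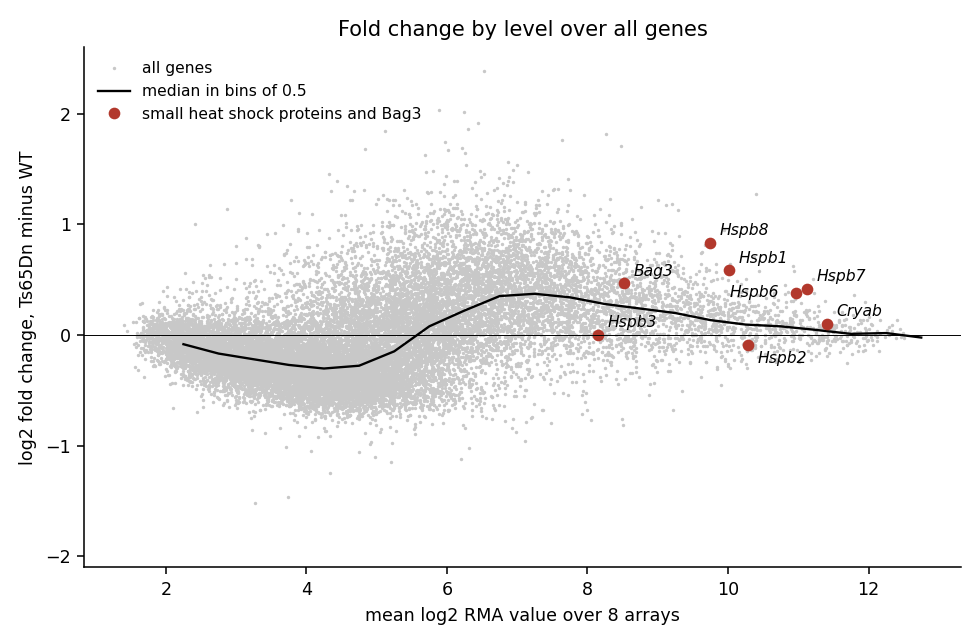
log2 fold change, Ts65Dn minus WT (y axis), against mean log2 RMA value over 8 arrays (x axis) for all genes (grey), with the median in bins of 0.5 (black line) and the 8 genes in red. The black line is above 0 in the bright part of the scale, and Hspb8, Hspb1, Hspb7 and Hspb6 lie above most genes of their level while Hspb2 and Hspb3 lie below the line.

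In a list of 8 client proteins of the Z-disc and cytoskeleton, 8 had a positive difference with all arrays, beside 39.2% of all genes. Of these 4 had an unadjusted p under 0.05, beside 12.3% of all genes and 21.5% of those in the range of level of the small heat shock proteins and Bag3, and 0 passed in either direction. Without WT arrays 2 and 3 the titin gene Ttn turned to -0.07. The median of the clients was 0.28, and 0.17 when level matched. The 39.2% counts genes of all levels, most of them dimmer than these clients. Over genes in the range of level of the small heat shock proteins and Bag3 the median difference was 0.17. The share of positive differences in that range is not given here. Filamin C (Flnc), the client removed by the BAG3 complex, was at 8.83, 8.41, 8.22 and 9.05 in Ts65Dn arrays, against 8.01, 8.12, 7.12 and 7.47 in WT arrays. Its groups did not overlap, and its log2 fold change of 0.95 (adjusted p = 0.0518) was the largest of the list, with 0.70 when level matched and 0.89 without WT arrays 2 and 3. Des, the client of alpha-B-crystallin, did not overlap either, at 10.83 to 10.93 in Ts65Dn arrays against 10.45 to 10.64 in WT arrays (0.32, adjusted p = 0.0740).

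Of 15 measured partners of BAG3 in chaperone-assisted autophagy 12 had a positive difference, beside 39.2% of all genes, bright and dim together. At an unadjusted p under 0.05, 4 had a positive difference (12.3% of all genes) and 1 a negative one (22.6% of all genes). In either direction 0 passed, beside 5.26% of all genes. The median was 0.10, and 0.03 when level matched. The smallest p-values were those of Yap1, a transcription coactivator controlled through BAG3 (0.48, adjusted p = 0.0695), and Synpo2, which ties the complex to membranes (0.37, adjusted p = 0.0791, level-matched 0.09). Of the HSP70 genes in this list, the constitutive Hspa8 had a difference of 0.09 (adjusted p = 0.576) and the inducible Hspa1a the largest of the list, 0.69 (unadjusted p = 0.0322, adjusted p = 0.113, level-matched 0.38). Hspa1a was at 8.51, 8.27, 7.43 and 7.18 in Ts65Dn arrays, against 7.11, 7.27, 6.80 and 7.44 in WT arrays, so Ts65Dn arrays 1 and 2 were high and the others overlapped with WT. Stub1, the ubiquitin ligase of the complex, had a difference of 0.19 (adjusted p = 0.449).

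Of 13 measured heat shock factors and classical heat shock genes, 10 had a positive difference, beside 39.2% of all genes, bright and dim together. Of these 7 had an unadjusted p under 0.05, beside 12.3% of all genes, and 0 passed in either direction, beside 5.26%. The median of 0.37 was 0.17 when level matched and 0.13 without WT arrays 2 and 3. Chordc1, an HSP90 partner, had a difference of 0.77 (adjusted p = 0.0667), which was 0.39 when level matched and 0.36 without WT arrays 2 and 3. Stip1, the adaptor between HSP70 and HSP90, had one of 0.48 (adjusted p = 0.0707), with 0.27 and 0.25 under these settings. 2 genes of this list and 1 of the BAG3 partners are not analysed here, because no probe set carries their symbol alone.

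The other small heat shock protein genes, which are not typical of muscle, included the only chaperone gene of these lists that passed. Cryaa, the alpha-A-crystallin of the lens, fell by 0.55 on the log2 scale, with 4.90 ± 0.13 in Ts65Dn and 5.45 ± 0.19 in WT (SD, n = 4 each; adjusted p = 0.0470). It is a dim probe set, and at that level most differences were negative, as the line in the plot of fold change by level shows. Its level-matched difference was -0.41. Of the 4 genes of this list 3 had a negative difference, 2 of them at an unadjusted p under 0.05, beside 22.6% of all genes. The other one, Hspb11, is counted here by its name alone. It had a positive difference at that p (0.45, adjusted p = 0.0909, level-matched 0.16). Among 5 other BAG family genes 0 passed, with the smallest p-values for Bag6 (0.53, adjusted p = 0.0997, level-matched 0.16) and Bag2 (0.59, adjusted p = 0.129, level-matched 0.21).

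**Figure D4:**
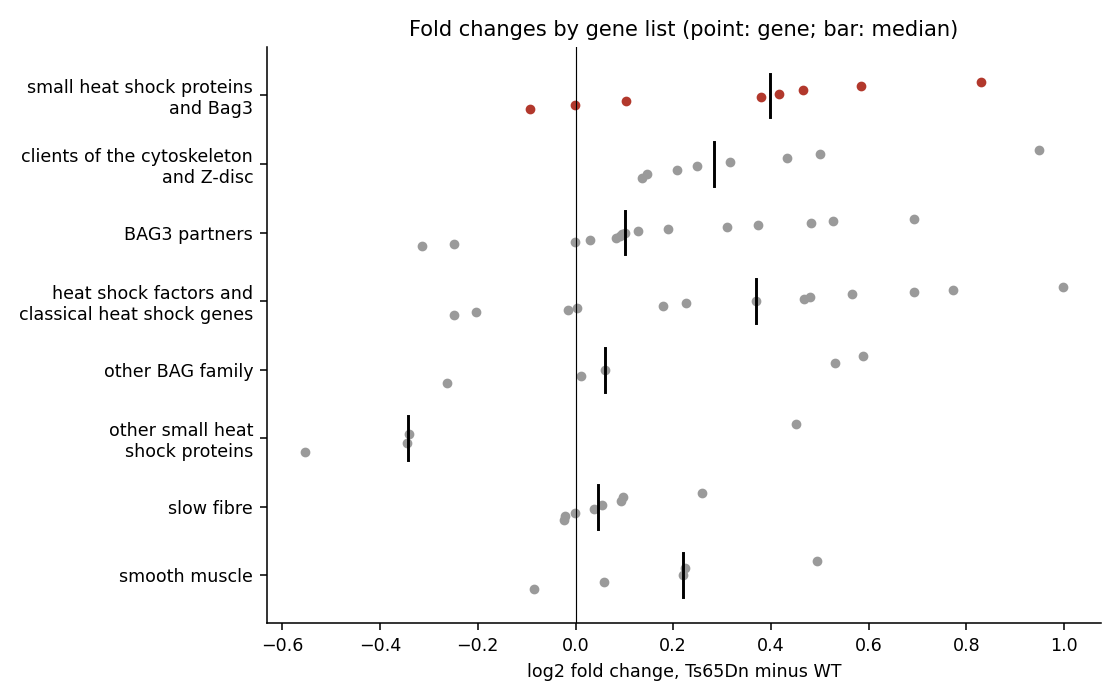
log2 fold change, Ts65Dn minus WT (x axis), of each measured gene (points) by list (rows), with the median of each list as a bar. The 8 members split into 5 between 0.38 and 0.83 and 3 between -0.09 and 0.10, and the 8 clients are all above 0.

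Other cell types also contain these chaperones, and in whole muscle a change in the number of cells cannot be told apart from one in RNA per cell. For smooth muscle markers the mean level was 5.47 to 5.84 in Ts65Dn arrays and 5.43 to 5.63 in WT arrays, with 0 of 5 passing. Of 8 slow fibre markers 0 passed, with a mean of 11.75 to 11.87 in Ts65Dn and 11.69 to 11.82 in WT. Several, such as Tpm3, Myl2 and Myl3 (mean levels 12.50, 12.33 and 12.33), were brighter than every member. Genes that bright differ little, so they could miss a change in fibre content. The dimmer Myh7 and Tnni1 had differences of 0.26 and 0.06. Of 10 fast fibre markers 0 passed, with a mean of 10.62 to 11.46 in Ts65Dn and 10.50 to 10.73 in WT. Ts65Dn array 4 stood apart for the fast fibre genes Myh4 and Actn3. Myh4 was at 6.76, 6.25, 6.22 and 10.52 in Ts65Dn arrays, against 6.44, 6.04, 6.33 and 5.89 in WT arrays. Actn3 was at 7.76, 6.77, 6.14 and 9.26 in Ts65Dn arrays, against 6.25, 7.33, 5.80 and 5.04 in WT arrays. That array was also the highest for Hspb6, Hspb7 and Cryab, and without it their differences were 0.34 (unadjusted p = 0.0657), 0.35 (unadjusted p = 0.0373) and 0.08. The endothelial mean was 5.78 to 6.10 in Ts65Dn and 5.20 to 5.62 in WT, with 1 of 5 passing, Kdr (0.99). The macrophage mean was 4.93 to 5.49 in Ts65Dn and 4.34 to 4.68 in WT, with 1 of 5 passing, Cd68 (2.39), while the defining macrophage gene Adgre1 was dim in both groups (-0.05). The fibroblast mean was 6.87 to 7.07 in Ts65Dn and 6.59 to 6.76 in WT, with 1 of 5 passing, Pdgfra (0.62). Of that list 3 genes had a positive difference and 2 a negative one, Col1a1 (-0.35) and Col3a1 (-0.06). The list median was 0.35, and 0.09 without WT arrays 2 and 3. The means of these 3 lists did not overlap between the groups. In this direction that was so for 6.81% of single genes. A mean over several genes scatters less than a single gene, so that share is not a rate for list means, which is not given here. In the macrophage list only Cd68 had groups without overlap, whereas Adgre1, Csf1r, Ptprc and Mrc1 each overlapped. The part of these lists in the members' differences was not tested. Adipocyte (4.73 to 5.58 in Ts65Dn, 5.17 to 5.84 in WT), Schwann cell (5.88 to 6.05 in Ts65Dn, 5.72 to 6.18 in WT) and red blood cell markers (4.85 to 5.99 in Ts65Dn, 5.42 to 5.86 in WT) overlapped between the groups, with 0 passing.

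The genes most like the members in their scatter within the groups were ranked by Pearson's r between a gene's deviations from its group means and the mean deviation of the 8 members over the 8 arrays. Among 9961 other genes at or above the median level the highest values were those of Cd99l2 (0.98), Camk2d (0.98), Cped1 (0.98), Fbxl4 (0.98) and Vwa5a (0.98). The mean deviation of the members was -0.22 in WT array 3 and between -0.09 and 0.13 in the others, so that array weighs most in this measure. In all, 211 of these genes had an r above 0.9, which is 2.12% of them. With level-matched values the r of the 5 genes lay between 0.69 and 0.93.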

How the data were processed

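Per the submitters' processing notes, Affymetrix Expression Console 1.1 with RMA gave the deposited log2 values, 1 per probe set and array. That they are log2 was inferred from their range. The authors' genome build was not given in the sources used here. Of 35556 probe sets, 21789 carry 1 gene symbol in the platform annotation. For 21698 of these the symbol was taken through the Entrez identifier, whether or not it differed from the annotated one. Keeping the brightest probe set of each gene left 19938 genes. Ts65Dn was set against WT in limma 3.58.1 (R 4.3.3; lmFit, eBayes), two-sided and without covariates. All genes entered the Benjamini-Hochberg adjustment, and adjusted p-values under 0.05 passed. Intervals are limma's 95% intervals, and the number of arrays limits the precision. Tables were made with Python 3.11.15 and pandas 2.3.3 and plots with matplotlib 3.10.9.

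The members and lists were chosen with earlier results of these data known. Named genes are the 8 members, list genes that passed or otherwise the 2 with the smallest p, Myh7 and Des, and the 5 genes most alike in pattern. The other marker genes, Hspa8, Hspa1a, Stub1, Hspb11 and Ttn were named outside this rule, after their values were seen. The fit was tested on simulated data for Ts65Dn against WT over 19938 genes. There it called 79% of genes given a change of 1 and 98% of those given a change of 2 (log2). The simulated noise was normal and independent between genes, and 200 genes were changed. It held no difference in array shape between the groups, unlike the real arrays, so these shares need not hold for them. A smaller change was not tested, and the differences of the 8 members were all smaller, at most 0.83 (Hspb8). Replicate numbers were checked for pairing: deviations of arrays with the same number correlated at 0.01 to 0.09 over genes, so the numbers were not used to pair mice. Alternatives changed the normalization, matched genes by level, dropped dim genes, averaged probe sets, added a replicate block, weighted arrays, let the variance follow intensity with robust estimation, or left out arrays.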

Additional observations from a re-analysis of the deposited data

Results flagged for a closer look

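In 16 groups of 4 arrays, 2 values lay apart from the rest of their group by Dixon's criterion, which flags about 1 in 20 groups by chance. Hspb8 was at 8.59 in WT array 3, 0.95 below the next WT array, within a range of 1.03. Hspb3 was at 7.85 in WT array 4, 0.39 below the next WT array, within a range of 0.44. Ts65Dn array 4 was also the lowest of its group for Hspb3, at 7.76. Without WT array 3 the difference of Hspb8 was 0.58 (limma adjusted p = 0.0869).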

How the results depend on the processing

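Over 18 alternatives Hspb1, Hspb6, Hspb7, Hspb8, Bag3 and Cryab kept a positive difference in each. Hspb2 turned to 0.090 with arrays centred on their median. Hspb3 turned to 0.18 with that centring, 0.048 with array weights and 0.11 without WT arrays 2 and 3 together, and with single arrays left out it ran from -0.10 (without WT array 4) to 0.13 (without Ts65Dn array 4). The count of members passing was 2 (Hspb1 and Hspb7) with arrays centred on their median, 0 to 1 with single arrays left out, the 1 being Hspb8 without WT array 1 or 4, and 0 in the other alternatives. The count at an unadjusted p under 0.05 was 3 to 5 with single arrays left out, with 3 without Ts65Dn array 2 or 4 or WT array 3, and 2 without WT arrays 2 and 3. The median of the members was 0.25 with another quantile normalization, 0.25 with cyclic loess, 0.28 with level matching, 0.58 with centring and 0.16 without WT arrays 2 and 3, and 0.29 to 0.47 with single arrays left out. The number of all genes passing limma was 1049 and ran from 0 to 2865 with single arrays left out (0 without Ts65Dn array 1, 3 or 4 or WT array 2, 1 without Ts65Dn array 2 or WT array 3, 2422 without WT array 4 and 2865 without WT array 1). It was 0 with another quantile normalization (4369 at an unadjusted p under 0.05) and 0 with the replicate block (7014 at that p). It was 990 with arrays centred on their median, 142 with cyclic loess, 99 with level matching and 436 with a filter on dim genes. With array weights it was 236, and without WT arrays 2 and 3 it was 1 (3351 at an unadjusted p under 0.05). The replicate block changed no call of a member, and 4 of 8 arrays correlated best with the array of their own number. The cause of these shifts was not tested.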
